A study of Homo sapiens with 20 samples.

Results

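Carfilzomib-resistant (CfzR) cells of L363, a human multiple myeloma cell line, were compared with the wild-type (WT) parental cells of the same line. The comparison rests on 4 of the 20 RNA-seq libraries of the series, 2 biological replicates of L363 CfzR and 2 of L363 WT, chosen by the cell line and drug in their labels. L363 CfzR cells were grown in 90 nM carfilzomib, and the L363 WT label names no drug. Bortezomib-resistant (BtzR) L363 cells, grown in 90 nM bortezomib, gave 2 further libraries and served to ask which differences were also seen in cells kept in the other drug. Each group is a single cell population sequenced in replicate. The p-values therefore measure the spread between replicates of these populations, not between independently derived resistant lines, and whether the drug was present at harvest is not given in the sources used here.

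Carfilzomib and bortezomib inhibit the proteasome, the protease complex that degrades ubiquitin-tagged proteins, and carfilzomib binds the catalytic subunit encoded by PSMB5 irreversibly. Plasma cells secrete large amounts of antibody and depend on disposal of misfolded protein, which is why these drugs are used in myeloma. Cells grown under such drugs are known to change drug efflux, proteasome subunits or the protein folding response, and P-glycoprotein, the efflux pump encoded by ABCB1, carries many large hydrophobic drugs out of cells.

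Levels are given in FPKM, fragments per kilobase of transcript scaled to the mapped fragments of the library. Calls of higher or lower required an adjusted p (Benjamini-Hochberg) under 0.05 together with a log2-fold change of at least 1 in size. Every log2-fold change is on the log2(FPKM + 1) scale, which understates the change of genes near 0. A gene was tested where its mean reached 1 FPKM in either group, which kept 10795 of 18305 genes, of which 447 passed through 1 group alone. The FPKM of short genes fell on steps from which a depth of 17.2 to 18.1 M mapped fragments was estimated for each of the 4 libraries. Replicates correlated on log2(FPKM + 1) with a Pearson r of 0.9972 in L363 CfzR and 0.9984 in L363 WT, and the libraries of the 2 groups with each other at 0.9911 to 0.9919. All 10 plasma cell markers, among them SDC1, IRF4 and XBP1, were above 1 FPKM in both groups and none was called. SLAMF7 (−0.76, adjusted p = 0.00153) and JCHAIN (−0.64, adjusted p = 0.0363) were lower at the adjusted p alone. By contrast, the summed level of 10 B-cell markers was between 0.44 and 0.62 FPKM in the 4 libraries. The libraries labelled AMO1 CfzR stood apart from their label. They correlated with the L363 libraries at 0.9912 to 0.9945 and with the other AMO1 libraries at 0.9242 to 0.9272, and they entered the fit only as a source of the spread between replicates.

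In L363 CfzR cells 145 genes were called higher than in WT, 1.34% of those tested, and 108 were called lower, 1.0% of those tested. Without the libraries labelled AMO1 CfzR in the fit, the counts were 144 and 108. At the adjusted p alone, 604 genes (5.6%) were higher and 450 (4.17%) lower. The median log2-fold change of all tested genes was −0.01. Of the 145 higher genes, 62 had a WT mean under 1 FPKM, and of the 108 lower genes, 37 had a CfzR mean under 1 FPKM.

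**Figure D1:**
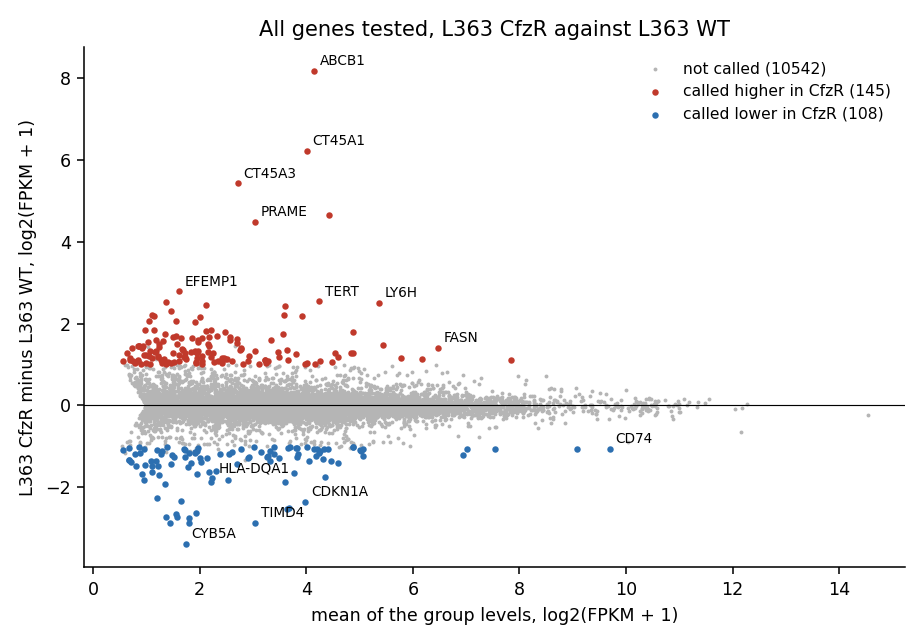
Difference between L363 CfzR and L363 WT on the log2(FPKM + 1) scale (vertical axis) against the mean of the 2 group levels on the same scale (horizontal axis) for the 10795 genes tested, each point a gene. The 145 genes called higher are red and the 108 called lower are blue, and ABCB1 lies farthest from 0 at 8.16.

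ABCB1 was the gene with the largest change. It was at 0.10 and 0.00 FPKM in the WT libraries, at 288 and 312 FPKM in the CfzR libraries and at 0.01 and 0.03 FPKM in the BtzR libraries. The groups are far apart, with the WT and BtzR libraries at or next to 0. The log2-fold change was 8.16 ± 0.10 (SE; limma, adjusted p = 3.7e-17) against WT and 8.203 against BtzR (adjusted p = 3.5e-17). Elsewhere in the series ABCB1 stayed at or below 0.94 FPKM, except in the libraries labelled AMO1 CfzR, at 683.5 and 668 FPKM. The other drug efflux pumps examined were not called. ABCC1, which encodes the multidrug resistance protein MRP1, was at 12.95 and 14.2 FPKM in WT and 11.04 and 11.9 FPKM in CfzR cells (adjusted p = 0.247). ABCG2, the breast cancer resistance pump, was under the level needed for a test in both groups. Of 26 tested ABC transporters, the calls were ABCB1 and ABCG1, a cholesterol exporter, beside 1.34% of all genes called higher. The median log2-fold change of the list was 0.05. ABCB1, with a WT mean of 0.05 FPKM, was tested through its CfzR level alone. ABCG1 was at 4.87 and 5.33 FPKM in WT and 11.2 and 11.6 FPKM in CfzR cells, a difference of 1.02 that lost its call without CfzR replicate 2 (1.00) or WT replicate 1 (0.97).

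Genes next to ABCB1 on chromosome 7 moved with it in part. Among the 40 listed genes flanking it in RefSeq order, 20 on each side, 21 were tested. In L363 CfzR 10 of these were higher and 3 lower at the adjusted p alone, against 5.6% and 4.17% of all genes, with a median log2-fold change of 0.37. SEMA3C, which encodes a secreted semaphorin, rose most, from 4.29 and 4.86 FPKM in WT to 23.4 and 26.5 FPKM in CfzR, with BtzR at 3.54 and 3.49 FPKM. It was called against WT (2.22 ± 0.19, adjusted p = 8.7e-07) and against BtzR (2.52, adjusted p = 2.4e-07). TMEM60 went from 17.1 and 18.2 to 40.6 and 49.0 FPKM and PHTF2, the gene listed next to it, from 13.1 and 14.4 to 34.1 and 36.1 FPKM. Both were called at a log2-fold change of 1.29, so that 3 successive tested genes were called higher.

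Closer to ABCB1 the differences were smaller and of both signs. Of the 8 tested genes within 10 places, DMTF1, which encodes a Myb-like transcription factor, went from 20.5 and 20.2 FPKM in WT to 36.1 and 44.9 FPKM in CfzR. TMEM243 went from 16.6 and 18.8 to 36.4 and 35.3 FPKM, and SRI, which encodes the calcium-binding protein sorcin, from 40.4 and 39.0 to 75.0 and 64.5 FPKM. These differences of 0.95, 0.98 and 0.79 passed the adjusted p (1.4e-05, 5.8e-05 and 8e-05) but not the fold threshold. CROT and ADAM22 were likewise higher at the adjusted p alone, by 0.54 and 0.93. SLC25A40 and DBF4, listed between ABCB1 and ADAM22, lay lower instead. SLC25A40, a mitochondrial carrier gene, was at 16.0 and 15.9 FPKM in WT and 9.88 and 10.3 FPKM in CfzR. DBF4, which encodes the activator of the replication kinase CDC7, was at 37.0 and 37.2 FPKM in WT and 25.5 and 25.9 FPKM in CfzR. Both were lower at the adjusted p alone (0.0135 and 0.00129). ABCB4, the phospholipid transporter gene that adjoins ABCB1, was at 0.11 and 0.01 FPKM in WT and 0.23 and 0.19 FPKM in CfzR and was too low to test. SEMA3A, another semaphorin gene, was at 5.47 and 6.49 FPKM in WT and 6.95 and 8.70 FPKM in CfzR (adjusted p = 0.131). In BtzR cells SEMA3A was lower than in WT at the adjusted p alone (−0.74, adjusted p = 0.00085), and none of the other 7 of these genes passed the adjusted p. ELAPOR2, also within 10 places, was at 0.12 and 0.04 FPKM in WT and 0.14 and 0.20 FPKM in CfzR. At 1.49 and 1.39 FPKM in BtzR, it was tested through that level alone. It was called higher in BtzR than in WT (1.18, adjusted p = 2.6e-05) and lower in CfzR than in BtzR (−1.06, adjusted p = 0.0001).

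**Figure D2:**
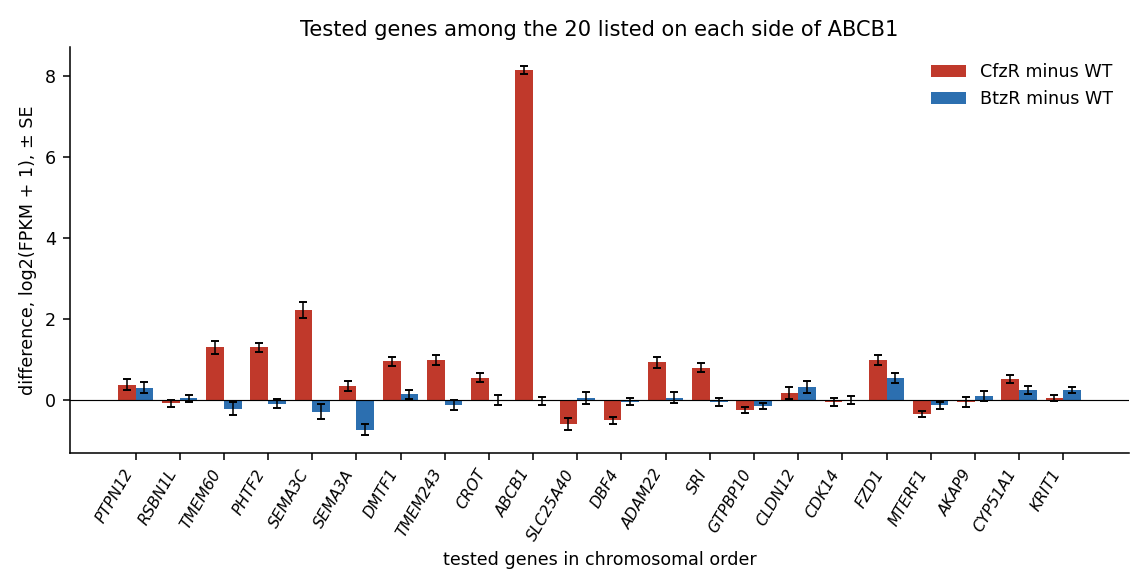
Log2-fold change with its standard error (vertical axis, log2(FPKM + 1) scale) of ABCB1 and of the tested genes among the 20 listed on each side of it, in chromosomal order; red bars are L363 CfzR minus WT and blue bars L363 BtzR minus WT. SEMA3C reaches 2.22 and SLC25A40 −0.61 in CfzR, while the blue bars drawn within 10 places lie near 0 apart from SEMA3A. ELAPOR2, too low to test between CfzR and WT and called higher in BtzR than in WT, is not drawn.

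The genes with the next largest rises were cancer-testis antigen genes, which are normally expressed in germ cells. PRAME was at 0.72 and 0.73 FPKM in WT, 33.8 and 41.6 FPKM in CfzR and 29.1 and 29.8 FPKM in BtzR. CT45A1 was at 1.55 and 0.30 FPKM in WT, 132 and 135 FPKM in CfzR and 121 and 114 FPKM in BtzR. Both rose against WT, by 4.48 and 6.20 (adjusted p = 2.9e-12 and 9.5e-12), and against BtzR neither difference passed the adjusted p (0.162 and 0.773). CT45A3, listed at 0 in both WT libraries, was at 46.8 and 37.4 FPKM in CfzR, and CT45A7 was at 3.07 and 3.49 FPKM in WT and 113 and 99.9 FPKM in CfzR. These CT45A copies are nearly identical, so the counting could have divided fragments among them and their separate values are uncertain. Of the 32 genes on the cancer-testis list 12 were tested, with a median of 0.06. PRAME, CT45A1 and XAGE1B were called higher and none lower, against 1.34% and 1.0% of all genes. Their WT means were 0.725, 0.925 and 0.095 FPKM, so they were tested through their CfzR level alone. The count therefore cannot be weighed against the share of all genes. MAGEA1, MAGEA3 and MAGEA6, already at 62.4 FPKM or more in WT, were not called. CTAG1A, which encodes the antigen NY-ESO-1, was listed at 0 in WT and BtzR and at 4.09 and 3.15 FPKM in CfzR. It has a nearly identical copy, CTAG1B, listed at 1.08 and 1.43 FPKM in WT and at 0 in CfzR, and the CTAG1A call was lost whichever library was left out (adjusted p = 0.108 to 0.193).

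TERT and several genes of the cytoskeleton and cell surface completed the higher group. TERT, the catalytic subunit of telomerase, was at 6.32 and 7.40 FPKM in WT and rose to 44.7 and 44.5 FPKM in CfzR (2.54 ± 0.15, adjusted p = 1.2e-08). The BtzR libraries were at 37.8 and 36.4 FPKM and did not differ from CfzR at the adjusted p (0.436). PALLD, which encodes an actin-bundling protein, rose from 0.70 and 0.99 to 9.93 and 8.41 FPKM, and GTSF1, a germ cell factor of small RNA silencing, from 4.07 and 4.29 to 27.1 and 27.0 FPKM. CD4, the T-cell coreceptor gene, was at 6.91 and 5.34 FPKM in WT and 29.5 and 32.8 FPKM in CfzR. The 10 T-cell markers summed to 9.81 and 9.78 FPKM in WT and 10.96 and 12.5 FPKM in CfzR, mostly from CD8B, at 9.91 and 10.8 FPKM in CfzR. CD3D and CD3E were listed at 0 in both CfzR libraries and CD3G was at 0.60 and 1.01 FPKM, and the part of these markers in the CD4 difference was not tested. PRAME, CT45A1, TERT, PALLD and CD4 were thus higher in both resistant populations, which share their WT libraries.

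Other rises set CfzR apart from BtzR. S1PR1, the receptor through which lymphocytes follow sphingosine-1-phosphate out of tissues, was at 0.08 and 0.06 FPKM in WT, 4.29 and 6.15 FPKM in CfzR and listed at 0 in BtzR. EFEMP1, an extracellular matrix gene, was at 0.20 and 0.13 FPKM in WT, 7.68 and 6.42 FPKM in CfzR and 0.06 and 0.06 FPKM in BtzR. SLPI, a secreted protease inhibitor gene, was at 0.19 and 0.29 FPKM in WT and 4.91 and 5.31 FPKM in CfzR and was listed at 0 in BtzR. All 3 were called against BtzR, at 2.62, 2.92 and 2.61 (adjusted p = 1.4e-08, 8.1e-12 and 8.1e-09). MME, which encodes the surface peptidase CD10, went from 0.76 FPKM in both WT libraries to 4.05 and 5.0 FPKM in CfzR, with BtzR at 0.20 and 0.56 FPKM. It was called against WT (1.64 ± 0.19, adjusted p = 1.7e-05) and against BtzR (2.01, adjusted p = 2.6e-06). LY6H, which encodes a lipid-anchored surface protein, was at 12.9 and 19.8 FPKM in WT, 89.0 and 104 FPKM in CfzR and 0.25 and 2.29 FPKM in BtzR. In the cytoskeleton list of 28 tested genes, the tubulin genes TUBB2B, TUBA1A and TUBB3 and the actin-capping gene CAPG were called higher and none lower, against 1.34% and 1.0% of all genes, with a median of 0.24. TUBB2B, with a WT mean of 0.86 FPKM, was tested through its CfzR level alone. TUBA1A did not set CfzR apart, as it was called higher in BtzR than in WT too (adjusted p = 0.0258). It did not differ between CfzR and BtzR at the adjusted p (0.653). Against BtzR, TUBB2B and CAPG were called higher in CfzR (adjusted p = 7.2e-05 and 0.00034). TUBB3 was higher than in BtzR at the adjusted p alone (0.0247). Between WT and CfzR, TUBB2B went from 0.89 and 0.83 to 6.53 and 6.81 FPKM. The call of TUBA1A was lost without CfzR replicate 2 (0.84, adjusted p = 0.0714), and that of CAPG without CfzR replicate 2 (0.77) or WT replicate 1 (1.097, adjusted p = 0.0636).

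**Figure D3:**
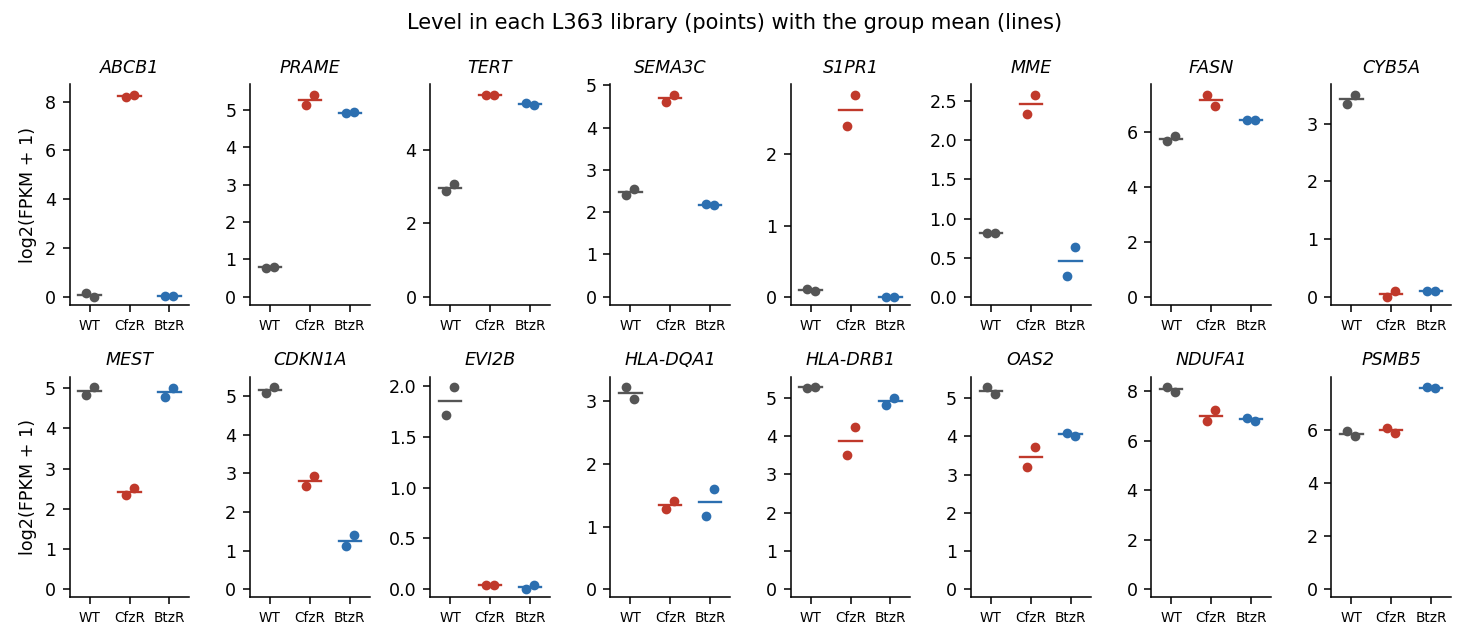
Level of 16 genes in each L363 library as log2(FPKM + 1) (vertical axis) in WT, CfzR and BtzR cells (horizontal axis), with a point for each library and a line at the mean of the 2 replicates. ABCB1, SEMA3C, S1PR1 and MME are high in CfzR alone, PRAME and TERT are high in both resistant populations, and PSMB5 is high in BtzR alone.

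Among the genes that fell, several were nearly lost. CYB5A, which encodes cytochrome b5, was at 9.11 and 10.3 FPKM in WT and at 0.00 and 0.07 FPKM in CfzR (−3.37 ± 0.10, adjusted p = 2.9e-12). APBA1, a neuronal adaptor gene, fell from 8.06 and 8.90 to 0.24 and 0.34 FPKM, and TRAT1, a T-cell receptor adaptor gene, from 8.02 and 8.08 to 0.32 and 0.36 FPKM. BCHE, which encodes butyrylcholinesterase, was at 6.24 and 6.32 FPKM in WT and PTPN7, a leukocyte phosphatase gene, at 6.69 and 4.64 FPKM, and both were listed at 0 in the 2 CfzR libraries. TIMD4, a receptor gene for phosphatidylserine on dying cells, fell from 20.3 and 21.6 to 1.36 and 2.81 FPKM. EVI2B, one of the surface markers that the study named for resistance, was at 2.28 and 2.96 FPKM in WT and 0.03 FPKM in both CfzR libraries (−1.81 ± 0.15, adjusted p = 7.9e-07). All 7 were called lower in BtzR as well. Between CfzR and BtzR none of the 7 passed the adjusted p, which was lowest for TRAT1 (0.176). CNTN1, a neuronal adhesion gene that fell from 8.12 and 8.68 to 0.44 and 0.64 FPKM, did pass it, with BtzR at 1.49 and 1.68 FPKM (−0.75, adjusted p = 0.0254).

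MEST, CDKN1A and ITM2A showed other orders of the 3 populations. MEST, a paternally expressed imprinted gene on chromosome 7, was at 27.4 and 31.5 FPKM in WT, 4.07 and 4.73 FPKM in CfzR and 26.4 and 31.2 FPKM in BtzR, and was called lower against both (−2.49 and −2.46). CDKN1A, which encodes the cell cycle inhibitor p21, was at 32.8 and 36.5 FPKM in WT, 5.33 and 6.67 FPKM in CfzR and 1.16 and 1.67 FPKM in BtzR. The CfzR level was lower than WT (−2.35 ± 0.40, adjusted p = 0.00077) and higher than BtzR (1.54, adjusted p = 0.0248). ITM2A followed the same order, at 31.7 and 26.3, 3.56 and 4.85, and 0.07 and 0.16 FPKM. Among 23 tested p53 and cyclin-dependent kinase inhibitor genes, CDKN1A was called lower and GADD45B higher, beside 1.0% and 1.34% of all genes. GADD45B, a stress-induced gene, was at 16.6 and 13.3 FPKM in WT and 42.4 and 29.2 FPKM in CfzR. The GADD45B call was lost without CfzR replicate 1 (0.93).

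Of the gene lists examined, HLA class II had the most genes called lower. These genes encode the molecules that present peptides to helper T cells, together with CD74, their invariant chain, and CIITA, the transactivator that switches them on. Of 16 tested members, 10 fell and none rose, against 1.0% of all genes called lower, and the median log2-fold change was −1.10. Leaving out each library in turn gave 7 to 12 called members. HLA-DRA was at 191 and 178 FPKM in WT and 74.2 and 104 FPKM in CfzR, and CD74 at 1248 and 1138 FPKM in WT and 536 and 612 FPKM in CfzR. HLA-DQA1 was at 8.32 and 7.16 FPKM in WT and 1.44 and 1.64 FPKM in CfzR (−1.78 ± 0.16, adjusted p = 1.2e-06). The CfzR libraries lay below both WT libraries for each of the 10, as they did for all 108 genes called lower. CIITA fell with its targets, from 7.45 and 8.40 to 2.51 and 3.72 FPKM (adjusted p = 0.00037). RFX5, RFXAP and RFXANK, which encode the subunits of the factor that CIITA works through at these promoters, were not called, at −0.33, −0.09 and −0.13. HLA-DRA, HLA-DRB5, HLA-DRB1 and HLA-DQA1 were the longest run of neighbouring tested genes called in the same direction anywhere in the genome. Values of single HLA-DRB and HLA-DQA genes are uncertain because their sequences are alike and vary between people. The CD74 call was lost without CfzR replicate 1 (−0.96) or WT replicate 1 (−0.99).

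The class II genes were low in BtzR too, with a median of −0.91 against WT. HLA-DRB1 was the member that differed between the resistant populations, at 10.3 and 17.8 FPKM in CfzR and 27.3 and 31.0 FPKM in BtzR (−1.04, adjusted p = 0.00314).

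Class II promoters are known for a set of short elements ahead of the gene, of which the Y box, an inverted CCAAT box, is the simplest to read. Of the 13 tested class II genes with a promoter in the RefSeq tables used here, 10 (76.9%) held ATTGG on either strand in the 250 bases before the gene's start, against 3253 of 8958 (36.3%) of all tested genes with a promoter. The cholesterol genes described below held it in 17 of 23 (73.9%). These 4 genes fell in CfzR cells, and their promoters from RefSeq on GRCh38.p14 are shown 5′ to 3′ on the gene's strand, with each ATTGG or its complement CCAAT in capitals.
HLA-DRB1, chr6:32589849-32590098, minus strand: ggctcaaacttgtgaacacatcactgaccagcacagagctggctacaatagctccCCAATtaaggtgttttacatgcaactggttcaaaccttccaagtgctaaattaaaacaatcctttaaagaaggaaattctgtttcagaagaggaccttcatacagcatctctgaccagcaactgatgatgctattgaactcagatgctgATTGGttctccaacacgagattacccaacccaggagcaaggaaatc
HLA-DQA1, chr6:32637156-32637405, plus strand: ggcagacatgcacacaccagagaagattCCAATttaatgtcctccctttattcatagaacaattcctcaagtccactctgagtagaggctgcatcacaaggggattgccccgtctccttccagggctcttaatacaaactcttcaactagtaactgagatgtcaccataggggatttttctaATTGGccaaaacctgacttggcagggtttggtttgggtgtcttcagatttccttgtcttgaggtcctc
HLA-DPB1, chr6:33075740-33075989, plus strand: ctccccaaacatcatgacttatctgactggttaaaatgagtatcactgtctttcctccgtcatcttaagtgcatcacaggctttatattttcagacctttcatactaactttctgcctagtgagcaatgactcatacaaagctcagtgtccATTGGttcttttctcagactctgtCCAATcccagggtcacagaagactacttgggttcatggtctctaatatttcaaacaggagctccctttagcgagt
CD74, chr5:150412911-150413160, minus strand: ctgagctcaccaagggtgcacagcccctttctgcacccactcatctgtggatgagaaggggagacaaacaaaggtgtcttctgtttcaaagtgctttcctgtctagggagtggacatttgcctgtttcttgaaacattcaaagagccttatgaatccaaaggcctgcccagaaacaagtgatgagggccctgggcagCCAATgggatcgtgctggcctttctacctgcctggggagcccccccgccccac

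Interferon-response genes were lower in part. The list examined joins HLA class I genes to them. Of its 35 tested members, 4 were called lower (OAS2, OAS1, IFI44 and MX1) and none higher, against 1.0% and 1.34% of all genes, and the median was −0.34. At the adjusted p alone 11 were lower and 1 was higher. The count was 2 without CfzR replicate 2 or WT replicate 1, and 7 where the 6 L363 libraries or the 4 compared were fitted alone. OAS2 and OAS1, neighbouring genes for antiviral enzymes that sense double-stranded RNA, were at 38.1 and 33.5 and at 16.7 and 13.4 FPKM in WT. In CfzR they were at 8.18 and 12.2 and at 5.36 and 5.14 FPKM (adjusted p = 0.00012 and 0.00069). MX1, a dynamin-like antiviral GTPase gene, went from 50.6 and 41.3 to 22.8 and 19.0 FPKM, a call lost without CfzR replicate 2 (−0.97, adjusted p = 0.0624) or WT replicate 1 (−0.95, adjusted p = 0.0808). IFI44 lost its call whichever library was left out (adjusted p = 0.0529 to 0.304). With a CfzR mean of 0.215 FPKM, IFI44 was also tested through its WT level alone. HLA-B, a class I gene, was at 420.1 and 360.1 FPKM in WT and 521 and 467 FPKM in CfzR and did not pass the adjusted p (0.168). Against BtzR, at 323 and 273 FPKM, HLA-B was higher in CfzR at the adjusted p alone, by 0.73 (0.00325).
The interferon-response element holds repeats of GAAA. GAAANNGAA on either strand was in 15 of 27 promoters of the HLA class I and interferon list (55.6%) and in 487 of 8958 (5.4%) of all. The promoter of IFI44 is shown because it is a called member that holds the motif, which is in capitals and reads on the opposite strand.
IFI44, chr1:78649539-78649788, plus strand: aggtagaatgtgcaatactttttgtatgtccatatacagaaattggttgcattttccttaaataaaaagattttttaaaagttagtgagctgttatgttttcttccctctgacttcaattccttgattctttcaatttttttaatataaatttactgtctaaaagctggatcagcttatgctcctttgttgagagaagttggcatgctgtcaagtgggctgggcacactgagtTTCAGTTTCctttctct

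Genes of cholesterol and fatty acid synthesis lay higher in CfzR as a group, by modest amounts. All 30 tested members had a log2-fold change above 0, from 0.03 (EBP) to 1.40 (FASN), with a median of 0.48, and 13 of the 30 were higher at the adjusted p alone, against 5.6% of all genes. FASN, the fatty acid synthase gene, rose from 49.6 and 56.8 to 164 and 123 FPKM (adjusted p = 1.5e-05), and ABCG1 was the other call. SREBF1, which encodes the master factor of lipid synthesis, was at 44.5 and 48.1 FPKM in WT and 82.4 and 83.1 FPKM in CfzR (0.83, adjusted p = 4.8e-05). SCD, the desaturase gene, was at 272 and 289 FPKM in WT and 474 and 450.2 FPKM in CfzR (0.72, adjusted p = 0.00061). In each of these genes the WT and CfzR libraries did not overlap, as in all 145 genes called higher. In BtzR the same list had a median of 0.14 against WT. INSIG1, which encodes the sterol-sensing brake of the pathway, was at 125 and 128 FPKM in CfzR and 59.4 and 58.6 FPKM in BtzR (1.083, adjusted p = 0.0244).

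Genes of the drug's target and of protein folding were examined next. PSMB5, which encodes the catalytic subunit that carfilzomib binds, was at 60.1 and 53.01 FPKM in WT and 66.4 and 58.1 FPKM in CfzR (0.14 ± 0.17, adjusted p = 0.764). In BtzR it was at 192 and 187 FPKM, and the CfzR level was lower than that (−1.60, adjusted p = 1.4e-05). None of the 10 catalytic and immunoproteasome genes and none of the 34 structural subunit genes was called in CfzR, with medians of −0.06 in each list. With 1.34% and 1.0% of all genes called, lists of this size are too short for the absence of calls to set them apart. The immunoproteasome genes PSMB8 and PSMB9 were at 0.27 and −0.21 (adjusted p = 0.123 and 0.394). NFE2L1, which encodes the factor that restores proteasome synthesis, was at 40.9 and 42.8 FPKM in WT and 32.5 and 39.0 FPKM in CfzR (adjusted p = 0.418).
No member was called among 25 heat shock chaperones, 38 genes of folding and degradation in the endoplasmic reticulum, 31 targets of the integrated stress response or 30 antioxidant genes. Beside 1.34% of all genes called higher and 1.0% called lower, these lists too are too short for the absence of calls to set them apart. Their medians were −0.04, −0.02, −0.19 and −0.02. HSPA5, the main chaperone of the endoplasmic reticulum, was at 305 and 266 FPKM in WT and 280.2 and 223 FPKM in CfzR, and the 2 groups overlapped. XBP1, the transcription factor gene of the unfolded protein response, differed by 0.00 ± 0.11 (adjusted p = 0.994).

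**Figure D4:**
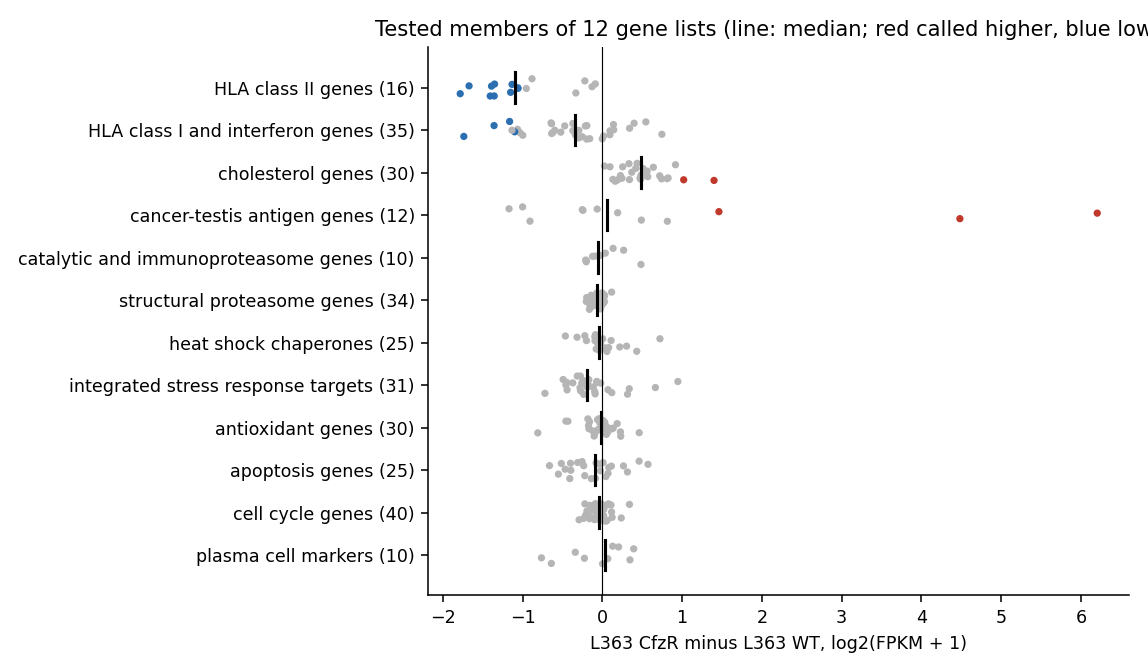
Log2-fold change of L363 CfzR against WT (horizontal axis, log2(FPKM + 1) scale) of the tested members of 12 gene lists, each point a gene and each black line the median of a list; red points were called higher and blue points lower. The HLA class II list sits at a median of −1.10 and the cholesterol list at 0.48, while both proteasome lists lie near 0.

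Survival, cell cycle and identity genes were examined as lists in the same way, beside 1.34% of all genes called higher and 1.0% called lower. None of 25 apoptosis genes was called, and at the adjusted p alone 3 were lower and 1 was higher, against 4.17% and 5.6% of all genes. MCL1, the survival factor on which plasma cells depend, was at 205 and 209.9 FPKM in WT and 122 and 163 FPKM in CfzR, lower at the adjusted p alone (−0.55, adjusted p = 0.00534). None of 40 cell cycle genes or of 25 regulators of plasma cell and B-cell identity was called. In the TNF and NF-kB list of 30, the death receptor gene FAS fell from 3.25 and 3.60 to 0.64 and 1.08 FPKM, and BIRC3 fell by 1.01, a call lost without CfzR replicate 1 (−0.65, adjusted p = 0.255) or WT replicate 2 (−0.81, adjusted p = 0.189). Among 28 tested adhesion genes, S1PR1 and ITGA2 were called higher and ITGA6, an integrin gene for laminin, fell from 5.04 and 4.23 to 1.76 and 1.47 FPKM. S1PR1 and ITGA2 had WT means of 0.07 and 0.225 FPKM and were tested through their CfzR level alone. FAS, with a CfzR mean of 0.86 FPKM, was tested through its WT level alone. The ITGA2 call was lost without CfzR replicate 2 (0.98). Of the surface markers that the study named for resistance, a list chosen on related samples, ABCB1, MME and EVI2B were called among 14 tested. ABCB1 and MME, with WT means of 0.05 and 0.76 FPKM, were tested through their CfzR level alone. EVI2B, with a CfzR mean of 0.03 FPKM, was tested through its WT level alone. The study based them on surface protein, and its proteasome inhibitor data include L363 CfzR. In the pooled protein data CD10 (MME) and CD151 were higher, and CD53, EVI2B, ITGB7 and CD50 (ICAM3) lower, than in the parental lines. The RNA of ITGB7 and CD151 had the opposite sign in L363 CfzR alone, without passing the adjusted p. For CD151 the study itself reported a rise in surface protein with almost no transcript change in AMO1 BtzR cells. CD53, a tetraspanin gene, was at 88.9 and 92.0 FPKM in WT and 54.6 and 68.7 FPKM in CfzR, lower at the adjusted p alone (0.0454). ITGB7, an integrin gene, was at 131 and 113 FPKM in WT and 199 and 191 FPKM in CfzR (0.67, adjusted p = 0.0883). ICAM3, at −0.19, and CD151, at −0.16, did not pass the adjusted p either (0.536 and 0.51).

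In the remaining lists the calls were single genes, beside 1.34% of all genes called higher and 1.0% called lower. PIM1, a survival kinase gene, rose from 8.87 and 11.7 to 21.7 and 21.9 FPKM, the call in 17 cytokine and chemokine genes, and was not called without WT replicate 1 (0.85). CTSS, a lysosomal protease gene, fell from 3.67 and 2.87 to 0.85 and 0.81 FPKM, the call in 26 autophagy genes. CDH1, which encodes E-cadherin, fell from 2.49 and 2.74 to 0.38 and 0.47 FPKM, the one stromal or epithelial marker tested. CTSS and CDH1, with CfzR means of 0.83 and 0.425 FPKM, were tested through their WT level alone. CD74 was the call among 25 myeloma target antigens. No gene was called among 15 bounce-back and ubiquitin genes, 22 glycolysis genes, 18 MAPK feedback genes, 25 solute carriers, 16 detoxification genes or 9 immunoglobulin-related genes. The few markers of T cells (CD8B), NK cells (KLRD1) and myeloid cells (CD68 and LYZ) that reached the test were not called, and no erythroid marker reached it.

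Chromosome X held the largest block of neighbouring genes at a lower level. Medians over 15 successive tested genes were at least 0.5 from 0 in 4 stretches of the genome, a search added after the values were seen, so these stretches are a description and carry no test. On chromosome X a stretch of 59 tested genes from HTR2C to MMGT1 had a median log2-fold change of −0.87, a ratio of 0.548. At the adjusted p alone 45 of these genes were lower and 4 higher, against 4.17% and 5.6% of all genes. Set against the WT mean, the median of the stretch was −0.84 and −0.82 in the 2 CfzR libraries and −0.02 and 0.02 in the 2 WT libraries. The replicates of each group lay close together and the groups did not overlap. The stretch was picked on these same CfzR and WT values, so neither its count nor that separation is added evidence. The median was −0.88 and −0.81 in the BtzR libraries, and CfzR and BtzR differed by a median of 0.04. The libraries labelled AMO1 CfzR were at −0.83 and −0.85.
The genes of this stretch, chosen for naming after their values were seen, have unrelated roles. SLC25A5, the ADP/ATP carrier gene of mitochondria, fell from 780.2 and 789.8 to 384.5 and 367 FPKM. HPRT1, the purine salvage gene, fell from 166 and 200.8 to 62.1 and 98.3 FPKM, and UPF3B, a gene of nonsense-mediated decay, from 38.7 and 42.9 to 18.9 and 20.8 FPKM. NDUFA1, the one called member of the respiratory chain list, lies here as well, at 284 and 250.04 FPKM in WT and 109 and 149 FPKM in CfzR, a call lost without CfzR replicate 1 (−0.84) or WT replicate 1 (−0.97). XIAP, an apoptosis inhibitor gene, was lower at the adjusted p alone (−0.66). The CT45A genes that rose lie inside the same stretch.

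A shorter stretch on chromosome X ran over 5 tested genes from TAB3 to DYNLT3, with a median of −0.73 in CfzR and 0.14 in BtzR against WT. Its limits are approximate. TAB3 itself was at 0.01 in CfzR, and the genes listed after DYNLT3 were low too: RPGR at −0.62, MID1IP1 at −1.27 and BCOR at −1.27. MID1IP1 and BCOR were called lower. In BtzR, RPGR, MID1IP1 and BCOR were at 0.05, −0.40 and 0.18. XK, which encodes a membrane transport protein, was at 11.5 and 12.8 FPKM in WT, 4.76 and 5.27 FPKM in CfzR and 13.01 and 14.4 FPKM in BtzR, and was called against both (adjusted p = 4.3e-07 and 1.1e-07). DYNLT3, a dynein light chain gene, was the other call among the 5. It was as good as absent in both resistant populations, at 0.03 and 0.00 FPKM in CfzR and 0.05 and 0.03 FPKM in BtzR, against 1.82 and 1.43 FPKM in WT. The remaining stretches were the ABCB1 region on chromosome 7, with 12 tested genes from TMEM60 to SRI and a median of 0.94 in CfzR and −0.06 in BtzR. On chromosome 6 the stretch held 6 tested genes from HLA-DQB1 to PSMB9, HLA-DQB1 and HLA-DQA2 followed by TAP2, PSMB8, TAP1 and PSMB9, with a median of their own of −0.20 and 1 call, HLA-DQA2. A stretch is the run of genes at the centre of such windows, so its own median can be nearer to 0 than that of the windows. Set against the WT mean, the median of the ABCB1 region was −0.11 and −0.20 in the libraries labelled AMO1 CfzR. In those libraries it was 0.16 and 0.11 from TAB3 to DYNLT3 and 0.30 and 0.22 in the chromosome 6 stretch. By whole chromosome the median log2-fold change lay between −0.09 for chromosome 3 and 0.04 for chromosome 19. Chromosome X had the largest share of called genes, 8.63% of 371 tested. Of these, 11 were called higher and 21 lower, beside 1.34% and 1.0% of all genes.

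**Figure D5:**
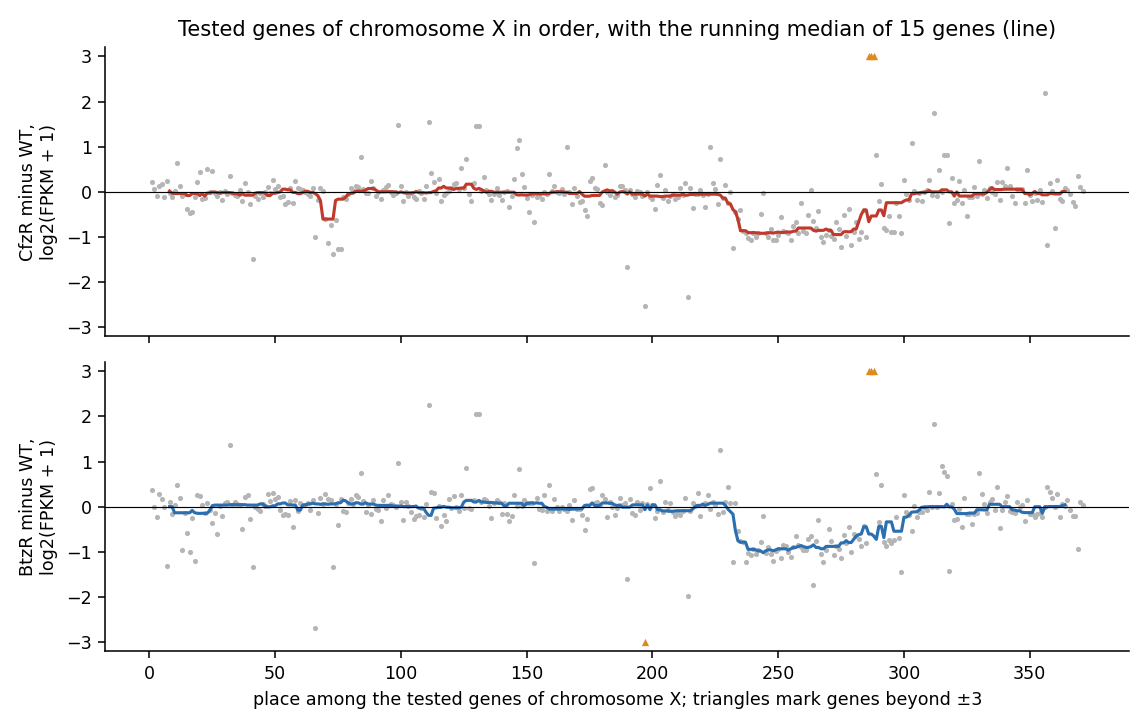
Log2-fold change against L363 WT (vertical axis, log2(FPKM + 1) scale) of the 371 tested genes of chromosome X in order (horizontal axis), for CfzR above and BtzR below, each grey point a gene and each line the running median of 15 genes. The long trough, with a median of −0.87 in CfzR and −0.86 in BtzR, appears in both panels, and the short dip with a median of −0.73 in CfzR appears in the upper panel alone.

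Set directly against BtzR cells, CfzR cells had 124 genes called higher, 1.14% of 10911 tested, and 71 called lower, 0.651%. ABCB1 led the higher genes, and PSMB5 and MEST were among the lower ones. The sterol brake gene INSIG1 was called higher, and HLA-B was higher at the adjusted p alone. The tetraspanin gene CD53, at 98.3 and 96.5 FPKM in BtzR, was lower in CfzR at the adjusted p alone (−0.66, adjusted p = 0.0204). GAPDH, the glycolytic enzyme gene, was at 4934 and 5025 FPKM in CfzR and 7895 and 7961 FPKM in BtzR, lower in CfzR at the adjusted p alone (−0.67, adjusted p = 0.00017), and it did not pass the adjusted p against WT, at 4859.5 and 4893 FPKM (adjusted p = 0.921).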

How the data were processed

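RNA of 20 libraries, 2 biological replicates in each of 10 groups, was sequenced at BGI (BGISEQ-500). For 18305 genes the deposited file gives FPKM to 2 decimals, as the authors computed it. The submitters' processing notes name HISAT2 2.0.4, Bowtie2 2.2.5 and RSEM 1.2.12 without roles, and the genome build is not given in the sources used here. Gene order was therefore taken from RefSeq (18261 IDs matched) without positions. Depth was estimated from the steps of single-transcript genes of at most 1000 bases: between 69.2% and 78.2% of values in the 4 libraries lay within 0.2 of a whole fragment, against 47.4% to 51.9% with lengths shuffled. No counts were recovered, so no counting interval is given.

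Differences were tested in R 4.3.3 with limma 3.58.1 on log2(FPKM + 1), fitting all 20 libraries with 1 mean per group, 10 residual degrees of freedom and a mean-variance trend. Genes with a mean of at least 1 FPKM in either group compared were tested, and adjusted p-values cover all of them. DESeq2 and edgeR need counts and were not used. An exact permutation test of 2 against 2 libraries cannot go below 0.33 and was not run. On simulated data, 100 of 100 genes changed by a log2 value of 1.5 and 99 of 100 changed by 3 were recovered, with 2 unchanged genes called among 10637 tested. The changed genes were drawn from those with a WT mean of at least 5 FPKM. Recovery was therefore not tested for low genes, such as the 62 of 145 higher ones with a WT mean under 1 FPKM.

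The 37 gene lists hold 955 genes, 952 of them in the table, and each list is described by counts and medians. The genes named were the 15 with the largest called change in each direction whose CfzR libraries both lay beyond both WT libraries, up to 4 called members of a list in each direction (or the 2 most abundant where none was called), a set of transporters, proteasome genes and surface markers, and the tested neighbours of ABCB1 within 10 places. Genes outside this rule, such as HLA-B, SREBF1, SCD, INSIG1, XK and those of the chromosome X stretches, were picked with their values in view. Some items are not reported here. The members and lists were chosen with earlier results of these data known. Alternatives covered the pseudocount, filter, scaling (TPM, quantile, upper quartile), trend, replicate block, libraries fitted and each library left out. Tables and figures were made in Python 3.11.15 (pandas 2.3.3, matplotlib 3.10.9).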

Additional observations from a re-analysis of the deposited data

Results flagged for a closer look

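In each of 5 genes the libraries of L363 CfzR were called higher than WT and those of L363 BtzR called lower, with the direct difference between the resistant populations called as well (limma, Benjamini-Hochberg). All values are log2-fold changes of CfzR against BtzR on the log2(FPKM + 1) scale. LY6H, a lipid-anchored surface protein gene, differed by 5.5808 (adjusted p = 6.2e-08), and against WT it stood at 2.51 in CfzR and −3.07 in BtzR. QPRT, an enzyme gene of NAD synthesis, differed by 2.978 (adjusted p = 8.1e-09), with 28.7 and 34.4 FPKM in CfzR, 13.9 and 14.96 FPKM in WT and 2.83 and 3.42 FPKM in BtzR. MDK, which encodes the growth factor midkine, differed by 2.8221 (adjusted p = 1.3e-07), with 19.6 and 13.5 FPKM in CfzR, 5.68 and 6.23 FPKM in WT and 1.75 and 1.17 FPKM in BtzR. The large scaffold gene AHNAK differed by 2.5205 and PLD4, a lysosomal nuclease gene, by 2.4976. The 3 groups did not overlap in any of the 5 genes. In AHNAK the CfzR replicates were far apart, at 16.4 and 27.0 FPKM. Both effects share the WT libraries.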

How the results depend on the processing

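Counts moved by more than 1.5 times with the pseudocount, the filter and the fold threshold alone. Against WT a pseudocount of 0.1 FPKM gave 252 genes higher and 165 lower, a filter of 5 FPKM gave 80 and 70, and the adjusted p alone gave 604 and 450. Against BtzR these settings gave 192, 77 and 413 higher, and 122 lower with the pseudocount and 368 without the fold threshold. Leaving out each library gave 134 to 163 higher and 93 to 132 lower against WT, and 108 to 137 and 61 to 80 against BtzR. The replicate block gave 145 and 112 against WT and 125 and 71 against BtzR. The labels tie a replicate number to no batch or day, so the main fit has no pairing. Deviations of same-numbered libraries correlated at 0.213 to 0.236, and with 2 numbers a group a pairing was not tested. With the block 6 genes of the HLA class I and interferon list and 2 of the cytokine list were called lower, against 4 and 0. Of 58 called genes named, 39 kept their call under every alternative and none reversed. Uncalled genes near 0 changed sign. MCM7 was 0.0086 with TPM and 0.0013 with upper quartile scaling, SLC38A5 was 0.0051 with TPM and KLRD1 was −0.0137 with quantile normalization. Leaving out each library gave −0.1831 to 0.0621 for PSMB3, −0.2915 to 0.1198 for HSPA8, −0.1906 to 0.2647 for HSP90AB1 and −0.2466 to 0.1401 for CALR. It gave −0.0047 to 0.0958 for PRDX1, −0.0304 to 0.2457 for ALDOA, −0.1938 to 0.1382 for JUNB and −0.0971 to 0.1033 for XBP1. It gave −0.0515 to 0.0125 for MCM7, −0.091 to 0.0921 for TYMS, −0.0897 to 0.0436 for SLC38A5, −0.1029 to 0.1557 for KLRD1 and −0.1184 to 0.347 for CD68. The cause of these shifts was not tested. Each group has 2 libraries of 1 population, and levels near 0 FPKM rest on few fragments.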

Other observations

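Beta-like globin genes, picked with their values in view, were lower in L363 CfzR. HBE1, the embryonic beta-like globin gene, was at 6.05 and 9.14 FPKM in WT, 1.31 and 2.40 FPKM in CfzR and 2.74 and 4.03 FPKM in BtzR, and was called lower against WT (−1.59, limma adjusted p = 0.00068). HBD, the delta globin gene beside it, was at 2.51 and 3.04 FPKM in WT and 0.15 and 0.31 FPKM in CfzR (−1.62, adjusted p = 4.8e-06). The 6 erythroid markers summed to 0.23 and 0.43 FPKM in WT and 0.29 and 0.50 FPKM in CfzR, with none at 1 FPKM.

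IFITM1, an interferon-induced membrane protein gene, separated the resistant populations. It was at 115 and 78.4 FPKM in WT, 146 and 133 FPKM in CfzR and 23.5 and 19.9 FPKM in BtzR, and was called between CfzR and BtzR (2.63, adjusted p = 2.4e-05) but did not pass the adjusted p between CfzR and WT (0.347).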
